A study of Mus musculus with 6 samples.

Results

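The expression of 10 genes of the NRF2 antioxidant defence was examined in microglia from mice that carry an enzymatically dead form of LACTB. The genes were found by name in an expression table of 15954 genes, all 10 were listed, and each stood on a single row. They comprise the transcription factor gene Nfe2l2, its inhibitor Keap1 and the adaptor gene Sqstm1, the glutathione synthesis genes Gclc and Gclm, the thioredoxin and peroxiredoxin genes Txnrd1, Srxn1 and Prdx1, and the superoxide dismutase genes Sod1 and Sod2. They were taken by gene name as members of the pathway, and the choice used no threshold on any value.

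There were 6 libraries of polyadenylated RNA, 1 per mouse, from 3 homozygous LACTB enzymatically dead (ED) mice and 3 wild-type (WT) mice, aged 3 months. LACTB is a serine hydrolase of mitochondria, and in ED mice the serine of its catalytic site is replaced. No source used here limits the change to microglia. The study reports that LACTB cleaves the metabolite succinylcarnitine. It found this metabolite raised in liver, brain lysate and isolated astrocytes of ED mice, as well as in their microglia. The allele is described in the study's methods as a conditional knock-in made in C57BL/6J embryonic stem cells, and the sources do not say how the mutation was brought into expression, how the WT mice were bred or which sex was used. Neither group was treated. Cells were taken from whole dissociated brain with magnetic beads against CD11b, a surface protein of microglia that other myeloid cells also carry. Microglial markers were abundant in all 6 libraries, with Csf1r, which encodes the receptor for a microglial growth factor, at 273414 to 286884 in ED microglia and 283283 to 326166 in WT microglia. All values are normalised read counts, meaning reads per gene divided by a size factor of the library. If each step between values is 1 read, the listed genes held 26024924 to 28122336 reads per ED library and 23394686 to 27432421 per WT library.

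NRF2, the protein of Nfe2l2, is made continuously and destroyed almost as fast while KEAP1 holds it for ubiquitination by a CUL3 ligase. Electrophiles and peroxides modify cysteines of KEAP1, NRF2 then escapes, enters the nucleus, pairs with small MAF proteins and binds antioxidant response elements near genes that make glutathione, regenerate thioredoxin and supply NADPH. Microglia and other phagocytes produce superoxide with the NADPH oxidase, and this defence limits the damage to their own proteins and lipids. Because this control acts largely on protein, the level of Nfe2l2 RNA does not report NRF2 activity, which is usually read from its targets.

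The binding sequence itself is shown first. The choice of members did not use it, and not every member is a strict NRF2 target. Promoter windows, from 250 bases before to 50 bases after each start, were taken from RefSeq on GRCm38.p6 and matched 9 of the 10 members by symbol (Gclc was not matched). The core of the antioxidant response element, TGACNNNGC, was searched on both strands. It was found in 6 of the 9 genes, against 14% of all 27025 genes with a window, and in 12.4% of all 32851 windows. In the further pathway lists described below, 20 of the 99 genes with a window held it (20.2%). Keap1, Sqstm1 and Sod2 had no match, and sequence outside the windows was not searched. Each match in a member follows as a run of 30 bases, read 5′ to 3′ on the strand that holds the element, with the element in capitals.
Gclm: ctcgtgagagtTGACGGTGCgcccgggagc
Nfe2l2: tcagcccaccTGACTCCGCcatgccccgga
Prdx1: cctacgggggaTGACTCAGCgctttccctg
Sod1: aggcctgagtcTGACCACGCccaccttggc
Srxn1: gtgtctcactcTGACCTAGCtgcccactgc
Txnrd1: ccgtgtcagaaTGACAAAGCaaaaatccag

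These runs lie at chr3:122245413-122245442 for Gclm, chr2:75704884-75704913 for Nfe2l2, chr4:116685456-116685485 for Prdx1, chr16:90220696-90220725 for Sod1, chr2:152105542-152105571 for Srxn1 and chr10:82859104-82859133 for Txnrd1. All are printed from the minus strand of GRCm38.p6, which is the coding strand of Nfe2l2 alone among the 6. The element was centred 130 bases before the start of Gclm, 236 before that of Nfe2l2, 129 before that of Prdx1, 52 before that of Sod1 and 88 before 1 of the 3 starts of Txnrd1, whereas that of Srxn1 lay 32 bases after its start. In Prdx1 the element contains TGACTCA, the sequence bound by AP-1, the FOS and JUN dimer. TGACTCA stood in windows of 2 of the 9 genes, Prdx1 and Srxn1, against 5.95% of all genes. Besides the copy in its element, the Prdx1 window held TGACTCA at 1 more place, 234 bases before the start. The Srxn1 window held it at 2 places, 99 and 42 bases before the start, printed with TGACTCA in capitals because no other member had more than 1 such match outside the element. They lie at chr2:152105411-152105440 and chr2:152105468-152105497, again on the minus strand. On its other strand, the copy 42 bases before the start has G for the C of TGACNNNGC and otherwise matches it. The search did not cover that form of the element.
Srxn1, 99 bases before: cgcacagcgtggTGACTCAggccctccgag
Srxn1, 42 bases before: gcgcccggccgcTGACTCAgggtgaatttg

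A match describes these letters within the window and is not evidence of binding in these cells.

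The members were expressed over a wide range. Per kilobase of annotated exon, taken as the union of all exons of a gene, Sqstm1 had the highest level, with a median over the 6 libraries of 1963 counts per kilobase, followed by Nfe2l2 at 1167. Prdx1 (685), Gclc (625) and Sod1 (529) came next, then Keap1 (337) and Txnrd1 (198), and Gclm (89.5), Sod2 (78.9) and Srxn1 (63.2) were lowest. The ranges over the 6 libraries overlapped between Prdx1 and Gclc, between Gclc and Sod1, between Gclm and Sod2 and between Sod2 and Srxn1. The other neighbours in this order lay apart. These ranges do not compare genes within the same library, so an overlap does not show that the levels were equal. The exons of Sod2 add up to 10.01 kilobases, the longest of the set, and a gene with rarely used long exons is placed too low on this scale. In the ranking of raw levels over all genes of the table the members stood between the 38.2 percentile for Srxn1 and the 95.6 percentile for Sqstm1.

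The comparison of ED with WT addressed whether loss of LACTB activity shifts this defence in microglia in the brain. No difference between the genotypes was detected for any of the 10 genes. With limma, fitted on log2(value + 1) over the whole table, 0 of 10 members passed at an adjusted p of 0.05, against 0% of the 15954 genes, and 0 of 10 had an unadjusted p under 0.05, against 1.82% (290 genes) of the table. The adjusted p was 1.00 for every member. The log2 fold changes lay between -0.07 for Sod1 and 0.06 for Gclc, with a median of -0.03 (all genes: -0.003). The outermost bounds of the 10 95% intervals were a fold of 0.777 and of 1.23, both for Srxn1, the member with the fewest reads, so that the other intervals lay within this range.

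**Figure D1:**
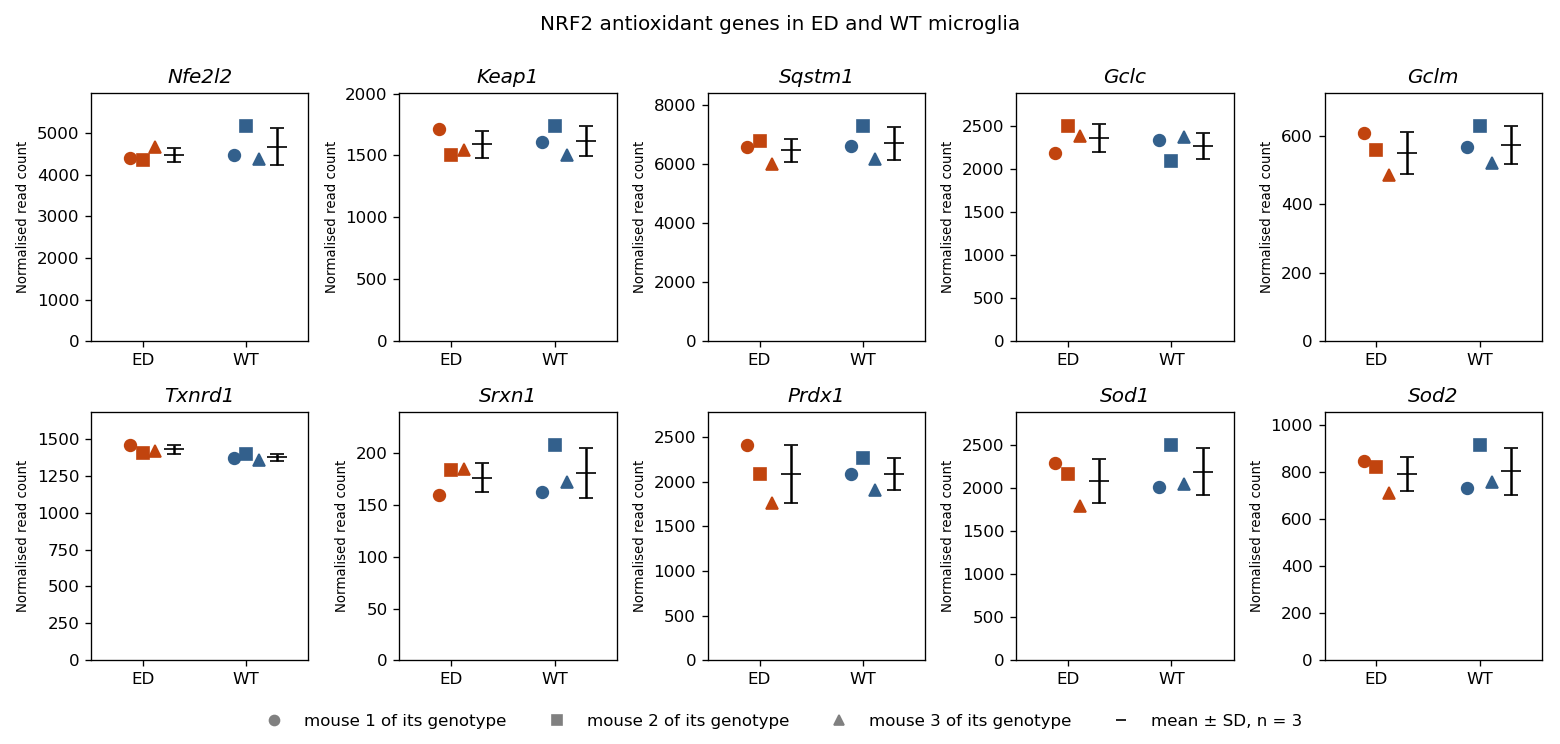
Normalised read counts (y axis, from 0) of the 10 genes in ED microglia (left, orange) and WT microglia (right, blue), with 1 symbol per mouse and the mean ± SD (n = 3) beside each group. Txnrd1 is the gene whose groups do not overlap, and the WT mouse 2 (square) holds the highest value of 7 genes.

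The regulators of the pathway were similar in both genotypes. Nfe2l2 (ENSMUSG00000015839, minus strand of chromosome 2, 75675513 to 75704641) had 4393, 4358 and 4660 counts in ED microglia, against 4465, 5172 and 4374 in WT microglia. The ED values lay within the WT range except for 4358, and the highest value of all was that of WT mouse 2. The means were 4470.3 ± 165 in ED and 4670.5 ± 436 in WT (SD, n = 3 each), a log2 fold change of -0.06 (SE 0.09, 95% interval -0.25 to 0.14).

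Keap1 (ENSMUSG00000003308, minus strand of chromosome 9, 21229730 to 21239361), which encodes the sensor and inhibitor of NRF2, had 1711, 1508 and 1548 counts in ED microglia and 1611, 1741 and 1503 in WT microglia. Both genotypes covered nearly the same range, and the log2 fold change was -0.03 (SE 0.09, 95% interval -0.23 to 0.17).

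Sqstm1 (ENSMUSG00000015837, minus strand of chromosome 11, 50199366 to 50210827) encodes p62, a receptor for autophagy that binds KEAP1 and so frees NRF2, and is itself a target of NRF2. It had 6561, 6787 and 6010 counts in ED microglia, against 6613, 7289 and 6169 in WT microglia. The lowest value was that of ED mouse 3 and the highest that of WT mouse 2, and the log2 fold change was -0.05 (SE 0.09, 95% interval -0.25 to 0.15).

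Glutathione synthesis begins with glutamate-cysteine ligase, whose catalytic subunit is encoded by Gclc and whose modifier subunit, which makes the enzyme more efficient, by Gclm. Gclc (ENSMUSG00000032350, plus strand of chromosome 9, 77754535 to 77794485) had 2189, 2508 and 2386 counts in ED microglia, against 2337, 2097 and 2374 in WT microglia. Here WT mouse 2 was the lowest of the 6, in contrast to most other members. ED stood above WT by a log2 fold change of 0.06 (SE 0.09, 95% interval -0.14 to 0.25).

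Gclm (ENSMUSG00000028124, plus strand of chromosome 3, 122245557 to 122270732) had 608, 558 and 485 counts in ED microglia, against 568, 629.6 and 520.1 in WT microglia. ED mouse 3 was the lowest and WT mouse 2 the highest, and the log2 fold change was -0.06 (SE 0.12, 95% interval -0.32 to 0.21).

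Thioredoxin reductase 1, encoded by Txnrd1, uses NADPH to keep thioredoxin reduced, and thioredoxin in turn reduces peroxiredoxins. Txnrd1 (ENSMUSG00000020250, plus strand of chromosome 10, 82833951 to 82897712) had 1460.1, 1407 and 1415 counts in ED microglia, against 1367, 1397 and 1356 in WT microglia. It was the member whose 3 ED values all exceeded the 3 WT values, as was true of 2.32% of all genes (0 of 10 members lay wholly below WT, against 3.42% of all genes), and the lowest ED value (1406.5) stood just above the highest WT value (1397.2). The mean was 1427 ± 28.8 in ED and 1373 ± 21.4 in WT (SD, n = 3 each), a log2 fold change of 0.06 (SE 0.07, 95% interval -0.11 to 0.22), which did not pass the test (unadjusted p = 0.468, limma adjusted p = 1.00). Txnrd1 also varied least. Its SD was 2.02% of the mean in ED and 1.56% in WT, where counting error alone would give 2.67% if each step of the values is 1 read. Its highest library exceeded its lowest by 1.08-fold, against 1.16-fold to 1.40-fold for the other 9 members.

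Peroxiredoxin 1, encoded by Prdx1, removes hydrogen peroxide, and sulfiredoxin, encoded by Srxn1, restores peroxiredoxins whose reactive cysteine has become overoxidised. Srxn1 (ENSMUSG00000032802, plus strand of chromosome 2, 152105516 to 152111376) had 160.3, 184 and 185 counts in ED microglia, against 162, 209 and 172 in WT microglia. The ED range lay inside the WT range but for its lowest value. Its log2 fold change was -0.03 with the widest interval of the set, -0.36 to 0.30 (SE 0.15), and counting error alone was 7.48% of its mean.

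Prdx1 (ENSMUSG00000028691, plus strand of chromosome 4, 116685544 to 116700822) had 2416, 2088 and 1768 counts in ED microglia, against 2082, 2265 and 1909 in WT microglia. Both the highest and the lowest value came from ED mice, mouse 1 and mouse 3, so that the SD was 15.5% of the mean in ED and 8.54% in WT. The log2 fold change was -0.004 (SE 0.12, 95% interval -0.27 to 0.26).

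Superoxide dismutases convert superoxide to hydrogen peroxide, SOD1 with copper and zinc mainly in the cytosol and SOD2 with manganese in the mitochondrial matrix. Sod1 is largely constitutive, and Sod2 is best known as a target of NF-kB, so neither is a strict NRF2 target. Sod1 (ENSMUSG00000022982, plus strand of chromosome 16, 90220754 to 90226329) had 2282, 2161 and 1788 counts in ED microglia, against 2009.5, 2499.6 and 2043 in WT microglia. The lowest and highest libraries were again ED mouse 3 and WT mouse 2, and the log2 fold change was -0.07 (SE 0.12, 95% interval -0.34 to 0.19).

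Sod2 (ENSMUSG00000006818, plus strand of chromosome 17, 13006846 to 13040063) had 845, 821 and 710.1 counts in ED microglia, against 733, 916 and 758 in WT microglia. The extremes were held by the same pair of mice as for Sod1, with a log2 fold change of -0.01 (SE 0.11, 95% interval -0.27 to 0.24). Keap1, Sqstm1, Gclm and Sod1 each overlap a listed gene on the opposite strand (Gm16754, Mrnip, Gm17494 and Scaf4) and Txnrd1 overlaps Eid3 on its own strand, and since strand-specific counting is not stated, reads of these pairs cannot always be told apart.

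The direction of the small differences changed with the mice included. Of the 10 members 8 had a log2 fold change below 0, against 51.4% of all genes, and 2 above, against 48.6%. Without WT mouse 2 the number below 0 was 0 of 10 and the median of the members was 0.03, against a median of -0.03 with all mice. Without ED mouse 3 the number below 0 was 4 of 10, and leaving out any of the other libraries gave 7 or 8. No gene in the table passed the test in any of these refits.

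**Figure D2:**
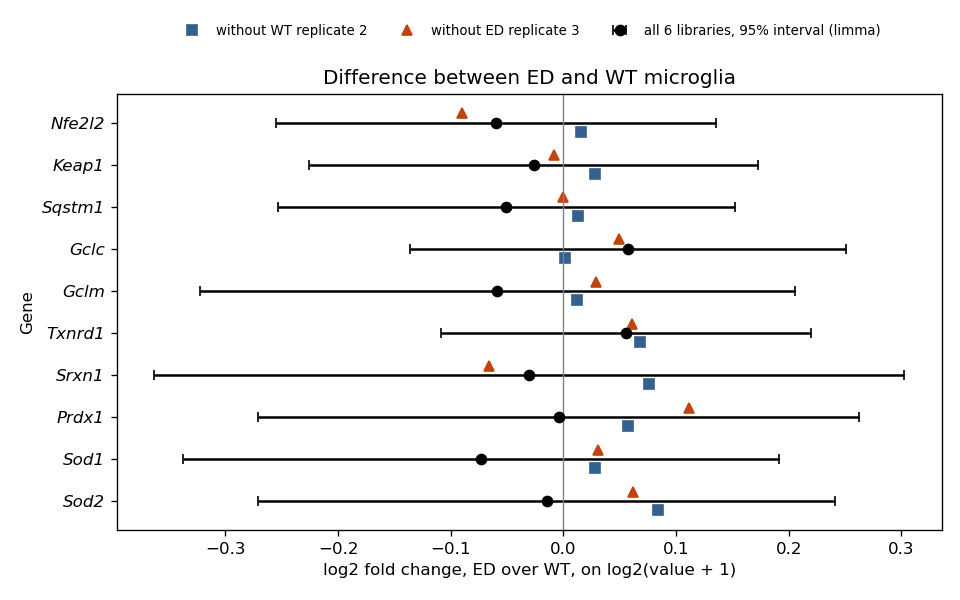
The log2 fold change of ED over WT (x axis) for each gene, with black points and bars for the limma estimate and its 95% interval over all 6 libraries, blue squares for the estimate without WT mouse 2 and orange triangles for that without ED mouse 3. Every interval spans 0, and all 10 blue squares lie at or above 0.

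The same pair of libraries stood out gene by gene. WT mouse 2 held the highest of the 6 values for 7 members (Nfe2l2, Keap1, Sqstm1, Gclm, Srxn1, Sod1 and Sod2), against 26.2% of all genes. It held the lowest for Gclc, against 27.7% of all genes. Both shares of all genes were the largest of the 6 libraries, so WT mouse 2 was often extreme in either direction. ED mouse 3 held the lowest value for 5 members (Sqstm1, Gclm, Prdx1, Sod1 and Sod2), against 20.2% of all genes. The median member stood 0.16 above its own 6-library mean in WT mouse 2 and 0.09 below it in ED mouse 3, on the log2 scale. The spread of the members was close to that of other genes. Their range over the 6 libraries was 0.11 to 0.48 on the log2 scale, with a median of 0.32, and the median range of the 9856 genes at or above the level of Srxn1 was also 0.32.

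**Figure D3:**
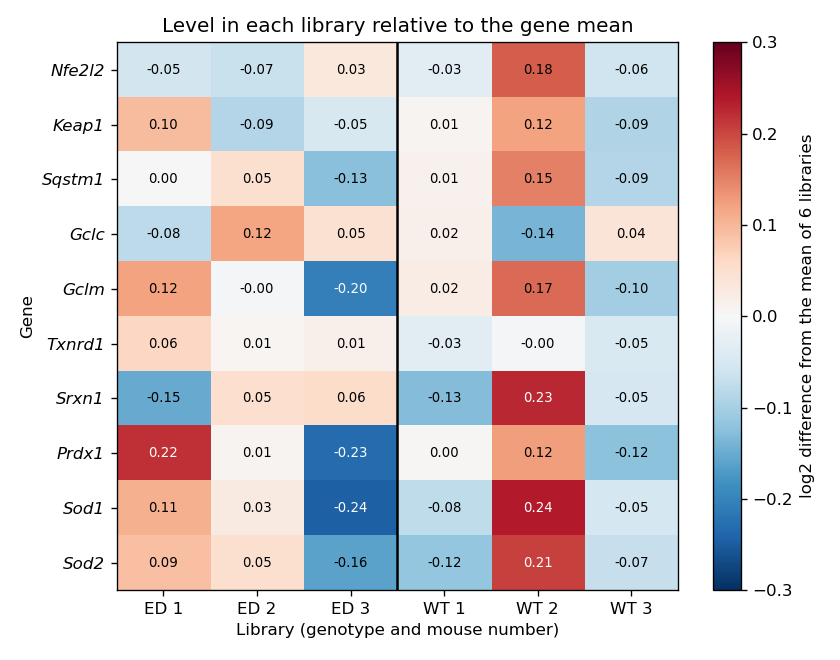
Level of each gene (rows) in each library (columns, ED to the left of the black line and WT to the right) as the log2 difference from its mean over the 6 libraries, red for higher and blue for lower. The column of WT mouse 2 is positive for 8 genes, up to 0.24 for Sod1, near 0 for Txnrd1 and negative for Gclc at -0.14.

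Marker transcripts also set some libraries apart. The 12 microglial markers, of which 10 were lower in ED, summed to 1043879 to 1133364 in ED and to 1127440 (mouse 1), 1250899 (mouse 2) and 1041475 (mouse 3) in WT, so that WT mouse 2 was highest here as for most members. The 10 border macrophage markers, of which 9 were higher in ED, summed to 49985 to 59070 in ED and to 54200 (mouse 1), 42383 (mouse 2) and 56209 (mouse 3) in WT, lowest in WT mouse 2. Oligodendrocyte markers summed to 12111 to 14200.5 in ED and 12304 to 16187 in WT, and astrocyte markers to 11569 to 12761 in ED and 11048 to 13207 in WT, with overlap in both. The 12 endothelial markers summed to 3795 to 4824 in ED and to 4552, 8106 and 3954 in WT mice 1, 2 and 3, and of the red cell markers the 2 analysed here, the globin genes Hba-a1 and Hbb-bs, summed to 41.1 to 70.3 in ED and to 380.9 in WT mouse 2, against 55.9 and 62.4 in the other WT mice. The 12 monocyte and neutrophil markers summed to 4831 in ED mouse 3, against 773 and 1257 in the other ED mice, and to 885 to 3044 in WT, with the maximum in mouse 2. Neuronal markers summed to 5307 to 7177 in ED and 7687 to 8487 in WT, with no overlap, and 19 of 20 genes were lower in ED. Of these 20 genes, 0 passed by limma, 9 had an unadjusted p under 0.05 and 12 lay wholly below WT, against 3.42% of all genes. The 20 genes of the dissociation response summed to 199650 to 311905 in ED, lowest in mouse 1, and 269109 to 385454 in WT, highest in mouse 2, with 18 of 20 lower in ED, of which 0 passed by limma and 0 had an unadjusted p under 0.05. No marker listed in the table was at 0 in any library. In bulk RNA a lower share of a cell type and less RNA per cell cannot be told apart, and the part of these transcripts in the values of the 10 genes was not tested.

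Genes that act as partners were then compared within each library, where the size factor cancels. The ratio of Keap1 to Nfe2l2 was 0.39, 0.346 and 0.332 in ED microglia, against 0.361, 0.337 and 0.344 in WT microglia, as a plain ratio of normalised read counts that is not corrected for length. The ED values spread on both sides of the WT values, and the difference of the log2 ratio was 0.03 (exact two-sided permutation p = 0.8, n = 3 each).

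The ratio of Gclm to Gclc was 0.278, 0.223 and 0.204 in ED microglia, against 0.243, 0.301 and 0.219 in WT microglia. It was highest in WT mouse 2, where Gclm was at its highest and Gclc at its lowest, and the log2 difference of -0.12 was within the spread (exact permutation p = 0.6, n = 3 each). The ratio of Srxn1 to Prdx1 was 0.0667, 0.0887 and 0.105 in ED microglia and 0.0785, 0.0925 and 0.0906 in WT microglia, with the extremes in ED mice 1 and 3 and a log2 difference of -0.03 (exact permutation p = 0.8, n = 3 each).

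The steadiest of the 4 ratios was that of Sod2 to Sod1, with 0.371, 0.38 and 0.397 in ED microglia, against 0.365, 0.367 and 0.371 in WT microglia. On the log2 scale its SD was 0.05 in ED and 0.01 in WT (n = 3 each), although Sod1 and Sod2 each varied by more than 1.29-fold over the libraries. The mean log2 ratio was -1.39 in ED and -1.44 in WT, a difference of 0.06 (exact permutation p = 0.2, n = 3 each). All 4 ratios had an adjusted p of 0.8 over the 4 pairs, and 3 mice against 3 cannot give an exact p below 0.1.

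**Figure D4:**
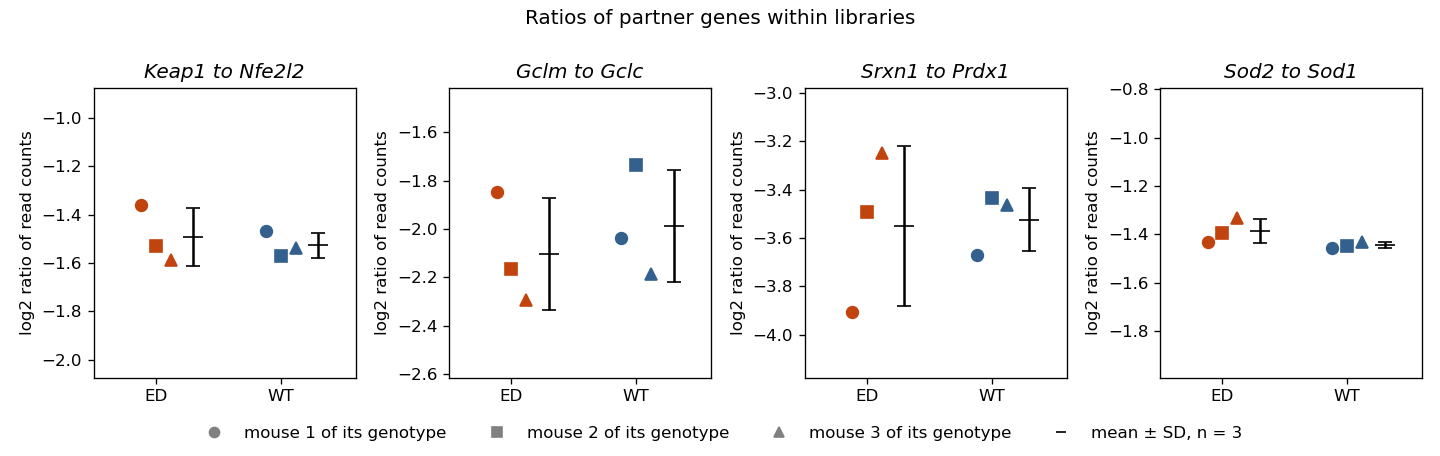
The log2 ratio of normalised read counts (y axis, each panel spanning the same number of units) for 4 pairs of genes in ED microglia (left, orange) and WT microglia (right, blue), with 1 symbol per mouse and the mean ± SD (n = 3) beside each group. The groups overlap in all panels, and the ratio of Sod2 to Sod1 shows the least spread.

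The wider pathway was covered by 7 lists with 122 of 124 genes in the table (Mgst2 and Nox4 were not analysed here). None of the 122 passed the test, 53 had a log2 fold change above 0 and 69 below, and the median was -0.01. An unadjusted p under 0.05 was reached by 1 gene, against 1.82% of all genes. The groups did not overlap for 4 genes, 2 higher and 2 lower in ED, against 5.74% of all genes in either direction.

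Of the 20 NRF2 partners and regulators 12 had a log2 fold change above 0 and 8 below (median 0.01). Mafg, a small MAF partner of NRF2, had 6547, 6409 and 7446 counts in ED microglia, against 6609, 5031 and 7542 in WT microglia. It was lowest in WT mouse 2, where Nfe2l2 and Keap1 were highest.

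Of the 27 measured genes listed as classic targets 10 had a log2 fold change above 0 and 17 below (median -0.03). A place in this list does not say whether NRF2 raises or lowers a gene. Fth1, the ferritin heavy chain gene, had 29949, 27871 and 26627 counts in ED microglia, against 28258, 33005 and 27036 in WT microglia. Txnip, which encodes an inhibitor of thioredoxin, had 28641, 32574 and 32370.3 in ED and 32985, 36571 and 28749.97 in WT. For both the highest library was WT mouse 2. Osgin1, which encodes an oxidative stress induced growth inhibitor, had 232, 210.4 and 319.96 in ED microglia and 186, 199 and 207 in WT microglia, with no overlap (log2 fold change 0.34, SE 0.17, unadjusted p = 0.0684, limma adjusted p = 1.00). Abcc4, an efflux transporter gene, had 417, 389 and 398 in ED and 429, 439.6 and 418 in WT, also with no overlap (log2 fold change -0.10, SE 0.10, limma adjusted p = 1.00).

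Of the 19 glutathione enzyme genes 9 had a log2 fold change above 0 and 10 below (median -0.01). Gpx1 and Gpx4 encode glutathione peroxidases that reduce hydrogen peroxide and lipid peroxides, and neither passed the test. Gpx1 averaged 4329 ± 453.5 in ED microglia and 4323 ± 436 in WT microglia, and Gpx4 2626 ± 294 in ED and 2553 ± 98.5 in WT (SD, n = 3 each). Gpx3, the secreted glutathione peroxidase, was the gene with an unadjusted p under 0.05. It had 295, 273 and 242 counts in ED microglia, against 228, 197 and 231 in WT microglia, a log2 fold change of 0.30 (SE 0.13, 95% interval 0.01 to 0.60, unadjusted p = 0.0449), and did not pass (limma adjusted p = 1.00).

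Of the 18 thioredoxin, peroxiredoxin and sestrin genes 6 had a log2 fold change above 0 and 12 below (median -0.03). The selenoprotein gene Selenop had 70213, 68175 and 53912 counts in ED microglia and 66508, 68793 and 59892 in WT microglia, lowest in ED mouse 3 like Prdx1 and the dismutase genes. Sesn1, a sestrin gene, had 3875, 4074 and 3798 in ED and 3704, 5000.2 and 3697 in WT, highest in WT mouse 2. Txnrd3, a relative of Txnrd1, had 169.6, 169.3 and 156 in ED and 179, 194 and 176 in WT, so that its ED values lay below its WT values while those of Txnrd1 lay above (log2 fold change -0.15, SE 0.13, limma adjusted p = 1.00).

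The NADPH supply genes, 6 above and 7 below 0 of 13 (median -0.002), included the pentose phosphate enzyme genes Pgd, at 6050.3 ± 289 in ED and 5993 ± 409.8 in WT, and Tkt, at 4309 ± 207 in ED and 4349 ± 527 in WT (SD, n = 3 each). Of the 10 measured genes of superoxide and hydrogen peroxide 4 were above and 6 below 0 (median -0.01), among them the NADPH oxidase subunit genes Ncf1, at 17905 ± 568 in ED and 18125 ± 845 in WT, and Cyba, at 8405 ± 534 in ED and 8348 ± 1417 in WT (SD, n = 3 each). The 15 genes of p62 partners and autophagy receptors had 6 above and 9 below 0 (median -0.01), with Gabarap, a protein of the autophagosome membrane, at 5136 ± 603 in ED and 5366 ± 766 in WT, and Wdfy3, an adaptor of selective autophagy, at 3863 ± 400.2 in ED and 4000.0 ± 1288 in WT (SD, n = 3 each).

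**Figure D5:**
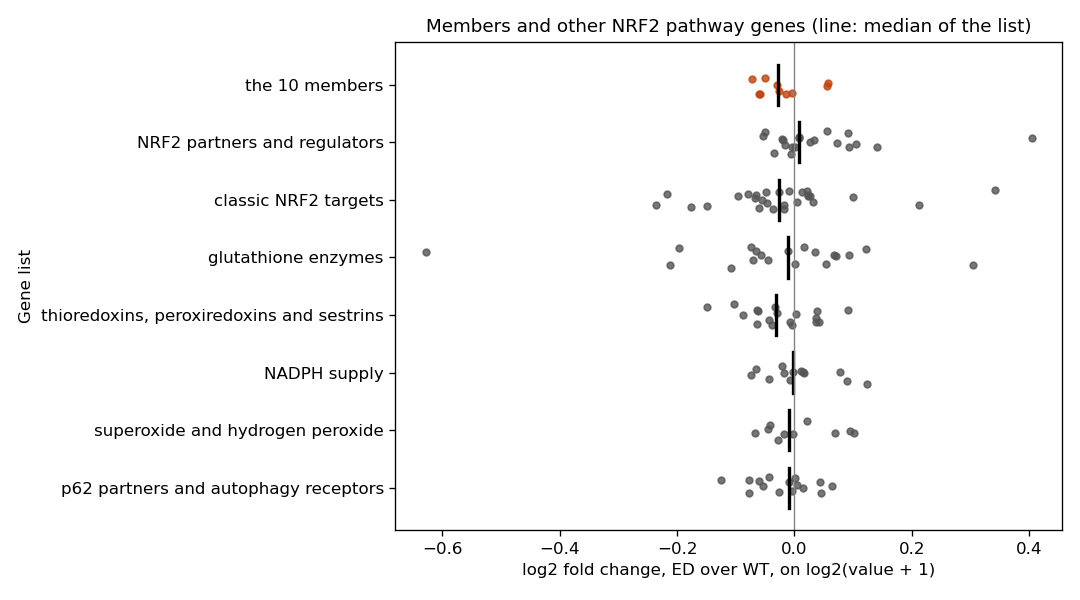
The log2 fold change of ED over WT (x axis) for the 10 members (orange) and for the genes of 7 further NRF2 pathway lists (grey), 1 point per gene with the median of each list as a black line. The medians of all lists lie between -0.03 and 0.01, and the points farthest from 0 belong to weakly expressed genes such as Gpx7 at -0.63 and Nfe2l3 at 0.40.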

How the data were processed

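RNA of CD11b-selected brain microglia from 3 ED and 3 WT mice was sequenced as paired-end polyadenylated libraries. Per the labels, the tools were DESeq2, Subread 1.5.2 with featureCounts, STAR 2.5.2b and Trimmomatic 0.36, and the genome was GRCm38. The table deposited by the authors holds a signal per gene and library, that is, reads scaled by 1 size factor for each library, with no gene under a mean of 9.87. Its log2 fold change and p-value columns are the authors' own comparison and were not used. Every signal was a whole multiple of 1 step in its library (tolerance 0.0001 of a step), but no ED library held a gene at 1 step, so the values were not treated as counts.

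ED was compared with WT, grouped by sample title, with limma 3.58.1 in R 4.3.3 (genotype only, mean-variance trend) on log2(value + 1), which understates changes of weak genes, with no filter and Benjamini-Hochberg adjustment over 15954 genes at 0.05. The 4 ratios were tested by exact permutation. The fit was tested on simulated data with planted changes larger than the differences of the members, so this test does not measure its power for them. Coordinates and exon lengths are from GENCODE M21 (15917 genes matched). The members and gene lists were chosen with earlier results of these data known. The named genes are all members, the 2 most abundant of each pathway list and, of the 3 most abundant of each marker list, those the text needs. 1 gene that this rule names is not reported here. Osgin1, Abcc4, Gpx3, Txnrd3, Gpx7 and Nfe2l3 were named after their values were seen.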

Additional observations from a re-analysis of the deposited data

How the results depend on the processing

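No member passed under any alternative run, and Txnrd1 stayed higher in ED under each of them. With array quality weights in limma 4 genes of the table passed in place of 0, none of them a member, and 3 members in place of 8 were below 0, since Sqstm1 (0.008), Srxn1 (0.094), Prdx1 (0.026), Sod1 (0.055) and Sod2 (0.111) turned; the weights were 3.23 for ED mouse 2 and 2.80 for WT mouse 1, against 0.35 to 1.00 for the others. The smallest weight, 0.35, was that of WT mouse 2. Upper-quartile rescaling turned Prdx1 (0.001). Leaving out single libraries, the count of members below 0 ran from 0 to 8, their median from -0.072 to 0.03, and genes called stayed at 0 (smallest adjusted p = 0.119 by limma). The log2 fold change ran from -0.105 to 0.016 for Nfe2l2, -0.081 to 0.028 for Keap1, -0.107 to 0.013 for Sqstm1, 0.001 to 0.11 for Gclc, -0.134 to 0.029 for Gclm, 0.039 to 0.068 for Txnrd1, -0.104 to 0.076 for Srxn1, -0.115 to 0.111 for Prdx1, -0.145 to 0.031 for Sod1 and -0.077 to 0.084 for Sod2. The log2 ratio difference ran from -0.033 to 0.082 for Keap1 to Nfe2l2, -0.244 to 0.01 for Gclm to Gclc, -0.176 to 0.152 for Srxn1 to Prdx1 and 0.031 to 0.081 for Sod2 to Sod1.

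Without WT mouse 2 and ED mouse 3 together, chosen after seeing the data, 2 members were below 0 and Keap1 (0.045), Sqstm1 (0.063), Gclc (-0.007), Gclm (0.1), Srxn1 (0.04), Prdx1 (0.172), Sod1 (0.132) and Sod2 (0.161) turned. Mice with the same number did not pair (correlation of deviations -0.25, 0.05 and 0.35 over 12377 genes), and a replicate block called 0 genes and turned no member. Over all combinations the correlation ran from -0.40 (ED mouse 3 with WT mouse 2) to 0.40 (ED mouse 1 with WT mouse 2). Pseudocounts of 0.5 and 10, a minimum mean of 50 and no trend changed no direction. The edgeR and DESeq2 alternatives were not run, since the values were not treated as counts. The cause of these turns was not tested.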
